A study of Mus musculus with 26 samples.

Results

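The genes described here are 35 protein-coding mouse genes for natural killer (NK) cell receptors and cytotoxic granule proteins, out of 54863 genes listed for small peritoneal macrophages (SPMs). They were selected by name: 26 genes whose symbols begin with Klra, Klrb, Klrc, Klrd, Klre, Klrg, Klri or Klrk, and 9 genes added singly, which are Ncr1, Gzma, Gzmb, Gzmk, Gzmm, Prf1, Nkg7, Fasl and Xcl1. No measured value enters that rule, but the set was proposed with earlier results from these samples known, so counts of its members are descriptions.

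NK cells kill infected or transformed cells by releasing granules that hold perforin, which opens pores, and granzymes, the serine proteases that enter through them. Whether they do so is set by the balance of activating and inhibitory receptors, many of which are C-type lectin-like proteins encoded side by side in the NK gene complex of mouse chromosome 6. The Ly49 proteins (Klra genes) and the CD94 and NKG2 heterodimers (Klrd1 with Klrc genes) recognise MHC class I molecules, the NKR-P1 proteins (Klrb1 genes) recognise C-type lectin-related ligands, and NKG2D (Klrk1) and NKp46 (Ncr1) are activating receptors. Several of these receptors are also found on T cell subsets, and some on myeloid cells.

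RNA was sequenced from 26 samples of sorted cells of naive female mice, WT (C57BL/6J) or ACKR2-/-, which lack an atypical chemokine receptor that takes up and degrades inflammatory chemokines. ACKR2-/- mice were bred as a separate homozygous colony and WT mice were purchased, so genotype and colony cannot be told apart. Bone marrow monocytes (4 samples of each genotype) were gated as Ly6G- SiglecF- F4/80- CD11b+ Ly6C+ cells, SPMs (4 of each) as F4/80 mid MHCII+ cells and lung macrophages (5 of each) as F4/80+ MHCII- cells. Each monocyte or SPM sample held cells of 5 mice, for lung samples no source used here gives the number, and none of the gates names a step against NK1.1 or CD3.

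Total counts per sample were 15450670 to 19218213 in monocytes, 12781144 to 35400034 in SPMs and 19950019 to 29770252 in lung macrophages. Levels are given as CPM, the counts of a gene divided by the scaled size of its library in units of 1e6 counts, and 3 counts, the limit that a count of 0 allows, came to between 0.0773 and 0.264 CPM per library. Ackr2 had 2 reads in all 8 monocyte samples together, 5 to 9 reads in each WT SPM sample and 0 in each ACKR2-/- SPM sample. In lung it had 150 to 469 reads in WT samples 1 to 4, 0 in the library labelled WT 5 and 7 to 50 in the ACKR2-/- samples. Lung WT 3 stood apart in its summed SPM markers, at 70058 CPM against 5989 to 9480 CPM in the other 9. Lung WT 5 and ACKR2-/- 4 were low in lung tissue cell markers, at 452 and 301 CPM against 5776 to 16846 CPM in the other 8. Summed neutrophil markers reached 9352 to 62957 CPM in the monocyte samples, whose summed monocyte markers reached 28046 to 71935 CPM. The lowest monocyte marker sums were those of ACKR2-/- 1 and 2, at 28046 and 43886 CPM, against 55743 to 67974 CPM in WT. Bulk RNA cannot tell fewer cells of a type from less RNA per cell, and this holds for every level below.

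Of the 35 genes, 26 lie on chromosome 6, and 24 of these fall in the NK gene complex at chr6:128609227-131247362 (GRCm38, a stretch of 2638.1 kb). Klrg1 and Klrg2 lie elsewhere on the same chromosome. The stretch holds 19 other protein-coding genes, among them Cd69 and the Clec2 genes. Ly49 genes are near copies of one another, so reads shared between copies may have been split or lost in the authors' counting, and a value of a single Klra gene is uncertain to that extent. No source used here says whether reads were counted by strand, which matters for neighbours that overlap.

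Promoter sequences from RefSeq (GRCm38.p6, 250 bases before to 50 bases after a start site) were found for 32 of the 35 genes, and Klrd1, Klrg1 and Klri2 had no entry. Those of Klra7 and Klra2 are shown because these Ly49 genes behaved differently in monocytes. Capitals mark the 1 run of at least 10 bases that they share in a global alignment, which is 16 bases long. The Klra7 window is chr6:130233273-130233572 on the minus strand and the Klra2 window is chr6:131247313-131247612 on the minus strand.
Klra7: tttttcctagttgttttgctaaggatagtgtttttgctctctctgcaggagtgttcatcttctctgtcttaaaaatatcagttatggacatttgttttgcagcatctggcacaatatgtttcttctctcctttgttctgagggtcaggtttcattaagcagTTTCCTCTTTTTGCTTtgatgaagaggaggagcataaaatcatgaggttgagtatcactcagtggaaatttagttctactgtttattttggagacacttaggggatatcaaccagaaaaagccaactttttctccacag
Klra2: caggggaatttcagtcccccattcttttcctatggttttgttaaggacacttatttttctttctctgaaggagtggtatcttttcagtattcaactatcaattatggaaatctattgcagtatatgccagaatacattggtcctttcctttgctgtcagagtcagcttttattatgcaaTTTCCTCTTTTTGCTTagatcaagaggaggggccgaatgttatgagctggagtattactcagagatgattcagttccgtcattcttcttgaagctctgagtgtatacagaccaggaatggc

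These windows were 64.4% identical over their alignment, within a range of 45.3% to 86% (median 50%) over the 55 pairs of Ly49 promoters. Neither held the letters TGTGGT, the core recognised by RUNX factors, on either strand. With 1 window taken for each gene, that hexamer was found for 15 of the 32 genes, against 16.8% of all 32851 promoters in the table. The letters GAGGAAG, a core of PU.1-type ETS sites, were found for 5 of 32 genes against 13.6% of promoters, and GGTGTGA, a T-box core, for 4 of 32 against 3.98%. Matches of the RUNX and T-box letters can overlap one another, and a match in these windows is a description of sequence only. The promoter of Klrc1, which encodes NKG2A, is shown as an example with its RUNX hexamer in capitals, written as its reverse complement and starting 87 bases before the start site. It lies at chr6:129678924-129679223 on the minus strand.
Klrc1: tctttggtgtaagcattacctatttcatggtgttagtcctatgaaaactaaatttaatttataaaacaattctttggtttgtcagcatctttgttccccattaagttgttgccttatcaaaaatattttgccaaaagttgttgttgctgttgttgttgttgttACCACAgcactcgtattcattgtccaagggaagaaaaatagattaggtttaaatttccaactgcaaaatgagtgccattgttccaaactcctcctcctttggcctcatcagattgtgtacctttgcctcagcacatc

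In WT mice the genes separated the cell types by level, with most of them highest in lung macrophages and lowest in monocytes. These comparisons used a joint fit of all 26 samples, in which cell type and sequencing table cannot be told apart. The fit tested 32 of the 35 genes, and a gene was called when the Benjamini-Hochberg adjusted p of edgeR's quasi-likelihood test over all 17792 tested genes was under 0.05 and the log2 difference over 0.5 in size. In WT monocytes 27 genes were called lower than in WT SPMs (21.8% of all tested genes were) and 2 higher (20.1% of all). Against WT lung macrophages 26 were called lower in monocytes (39.5% of all) and 2 higher (24.4%). In WT SPMs 17 were called lower than in lung (39.1%) and 4 higher (23.2%).

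The 2 genes called higher in monocytes than in either macrophage were Nkg7 and Klrb1f. Nkg7, a membrane protein of cytotoxic granules, had a joint-scale mean of 671 ± 203 CPM (SD, n = 4) in WT monocytes, 83.5 ± 43.8 CPM (SD, n = 4) in WT SPMs and 83.8 ± 30.1 CPM (SD, n = 5) in WT lung macrophages. The log2 difference of monocytes over SPMs was 3.01 (SE 0.55, edgeR adjusted p = 7.65e-05), and the macrophage types did not differ beyond their spread (log2 difference -0.01, SE 0.49, edgeR adjusted p = 0.992). Klrb1f, which encodes the NKR-P1F receptor, was at 70.6 ± 7.6 CPM in monocytes, 0.999 ± 0.507 CPM in SPMs and 3.9 ± 1.68 CPM in lung. Its log2 difference was 6.18 over SPMs (SE 0.59, edgeR adjusted p = 4.89e-09) and 4.17 over lung (edgeR adjusted p = 2.28e-08). The order of its levels was thus monocyte, lung and SPM, and all 3 steps passed the test.

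The 4 genes called higher in WT SPMs than in WT lung were Klrb1a, Klri1, Klrg2 and Klrk1. Klrb1a, which encodes NKR-P1A, had 0 reads in the WT monocyte samples and 23.8 ± 2.7 CPM in WT SPMs (SD, n = 4), at least 669-fold higher than the floor of 3 counts over the monocyte group. Its level in lung was 2.22 ± 1.12 CPM (log2 difference of SPM over lung 3.41, SE 0.50, edgeR adjusted p = 3.92e-06). Klrk1, the activating receptor NKG2D, was at 71 ± 24.6 CPM in SPMs, 23.3 ± 7.76 CPM in lung and 10.8 ± 2.54 CPM in monocytes. SPMs exceeded lung by 1.60 (SE 0.42, edgeR adjusted p = 0.00167), and each neighbouring step in that order passed the test. Klri1, whose product pairs with KLRE1, was at 7.84 ± 2.8 CPM in SPMs against 0.833 ± 1.65 CPM in lung, where WT 3 held most of the signal. On the scale of the lung table alone Klri1 was at 5.06 CPM in lung WT 3 and at 0 to 0.235 CPM in the other 4 WT samples. Klrg2 was at 3.84 ± 1.07 CPM in SPMs and 0.238 ± 0.22 CPM in lung (log2 difference 3.99, SE 0.66, edgeR adjusted p = 1.17e-05).

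Gzma, Gzmb, Prf1 and Fasl were highest in lung, whereas Gzmk and Gzmm were not called between SPMs and lung. Gzma, granzyme A, was at 113 ± 40.2 CPM in WT lung macrophages (SD, n = 5), 7 ± 4.63 CPM in WT SPMs and had 1 read in all 4 WT monocyte samples. The log2 difference of SPMs from lung was -4.02 (SE 0.68, edgeR adjusted p = 1.53e-05). Gzmb, granzyme B, was at 62.9 ± 32.9 CPM in lung and 1.32 ± 0.867 CPM in SPMs (log2 difference -5.56, SE 0.87, edgeR adjusted p = 8.17e-06). Its 0 reads in WT monocytes put lung at least 1812-fold higher. Prf1, perforin, was at 27.8 ± 12.5 CPM in lung and 0.942 ± 0.71 CPM in SPMs (log2 difference -4.87, SE 0.76, edgeR adjusted p = 4.64e-06). Fasl, the ligand of the death receptor FAS, was at 9.74 ± 3.95 CPM in lung and 1.03 ± 0.817 CPM in SPMs (log2 difference -3.37, SE 0.58, edgeR adjusted p = 1.93e-05). The SPM and lung samples did not overlap for these 4 genes.

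Ncr1, the NKp46 receptor that marks NK cells and related innate lymphoid cells, had 0 reads in all 8 monocyte samples. In WT it was at 2.15 ± 1.37 CPM in SPMs and 13.3 ± 4.97 CPM in lung, at least 60.2-fold and 385-fold higher than the monocyte floor. Of the 35 genes, 11 had 0 reads in WT monocytes. Klrd1, which encodes CD94, was among the receptors that were not called between the macrophage types, at 21.2 ± 8.23 CPM in SPMs and 14.5 ± 7.02 CPM in lung (log2 difference 0.55, SE 0.40, edgeR adjusted p = 0.235), with 0.778 ± 0.376 CPM in monocytes. Klra2, an inhibitory Ly49 receptor (Ly49B) known from myeloid cells, was the most even of the abundant genes, at 58.9 ± 17.9 CPM in monocytes, 133 ± 30.7 CPM in SPMs and 92.3 ± 48.8 CPM in lung. Only the step from monocytes to SPMs was called for Klra2 (log2 difference -1.17, SE 0.40, edgeR adjusted p = 0.0193).

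**Figure D1:**
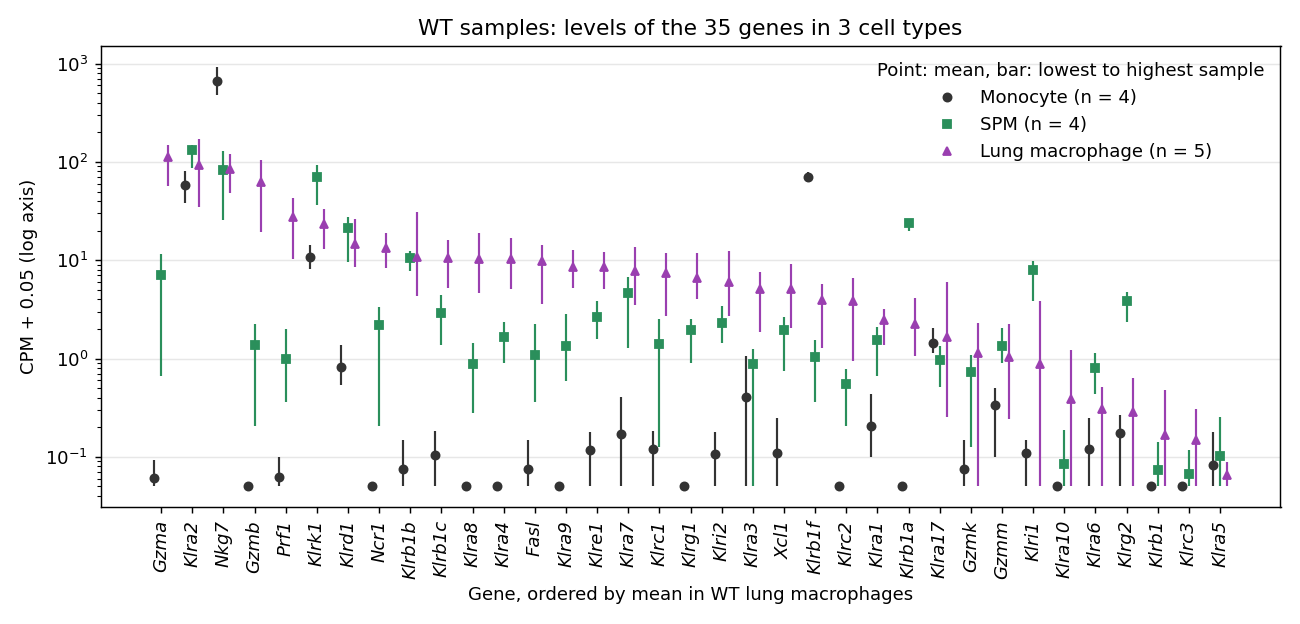
Levels of the 35 genes in WT samples on the joint scale (CPM + 0.05, log axis), as the mean (point) and the lowest to highest sample (bar) for monocytes (n = 4), SPMs (n = 4) and lung macrophages (n = 5). Most points run from low in monocytes to high in lung, while Nkg7 and Klrb1f are highest in monocytes and Klrb1a, Klrk1, Klri1 and Klrg2 in SPMs.

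Compared per kilobase of transcript within a cell type, the order of the genes in WT samples also differed. In monocytes Nkg7 led with a WT mean of 938 CPM per kb, followed by Klrb1f at 44.5 and Klra2 at 39.7 CPM per kb, and no other gene exceeded 1.92 CPM per kb. In SPMs Nkg7 (51.3 CPM per kb) and Klra2 (39.4 CPM per kb) led, and Klrd1 (9.31 CPM per kb) and Klrb1a (8.47 CPM per kb) came next. In lung the order was Gzma at 145, Nkg7 at 118, Klra2 at 62.3 and Gzmb at 56.1 CPM per kb. Klra2 was thus among the 3 leading genes of each cell type.

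Monocyte samples of ACKR2-/- mice held more RNA of a set of NK receptors than WT monocyte samples, at low levels throughout. Which cells in the samples held that RNA was not tested. The fit on monocytes tested 13246 genes, of which 0.913% were called higher in ACKR2-/- and 0.355% lower. Of the 35 genes 14 passed the filter on low counts, and 7 were called higher and 0 lower. Those called were Klrd1, Klrc1, Klre1, Klra1, Klra6, Klra7 and Xcl1. Because most of them passed the filter through the ACKR2-/- samples alone, the share among the 14 is not read further. Over all members, 31 had at least 1 read, and the ACKR2-/- mean was above the WT mean for 27 of these.

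Klrd1, the CD94 subunit shared by the NKG2 receptors, was at 0.782, 0.622, 0.89 and 1.68 CPM in the WT monocyte samples and at 8.77, 4.21, 6.21 and 11.5 CPM in the ACKR2-/- samples. The groups did not overlap, and each ACKR2-/- sample was above the highest WT sample. The log2 fold change was 2.93 (SE 0.38, edgeR adjusted p = 0.00242). Klrc1, which encodes its inhibitory partner NKG2A, was at 0.0651, 0.124, 0 and 0.168 CPM in WT and 0.861, 0.911, 1.89 and 2.87 CPM in ACKR2-/- samples (log2 fold change 4.09, SE 0.67, edgeR adjusted p = 0.011). Klrc2, which encodes the activating partner NKG2C, had 0 reads in WT and 43 reads over the 4 ACKR2-/- samples, at least 13-fold higher than the floor of 3 counts over the WT group. It did not pass the filter.

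Klre1, a lectin-like receptor of NK cells that pairs with the KLRI proteins, was at 0, 0.124, 0.167 and 0.0559 CPM in WT and 2.47, 1.25, 2.05 and 2.44 CPM in ACKR2-/- monocytes (log2 fold change 4.43, SE 0.55, edgeR adjusted p = 0.00143). Its partners stayed near 0 in both genotypes, with 5 and 3 reads of Klri1 and 5 and 20 reads of Klri2 in the WT and ACKR2-/- groups. The receptor Klre1 thus separated the groups and its partners were too low to compare.

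Among the 11 Ly49 genes, 6 passed the filter and 3 were called. Klra7 (Ly49G) was at 0, 0, 0.167 and 0.447 CPM in WT and at 4.03, 2.96, 3.42 and 3.29 CPM in ACKR2-/- monocytes (log2 fold change 4.35, SE 0.63, edgeR adjusted p = 0.00483). Its ACKR2-/- samples lay close together and far from the WT samples. Klra1 (Ly49A) had a log2 fold change of 3.03 (SE 0.54, edgeR adjusted p = 0.0197) and Klra6 (Ly49F) of 3.61 (SE 0.69, edgeR adjusted p = 0.0287). Klra9 had 0 reads in WT and 38 in ACKR2-/- samples, at least 11.5-fold higher than the floor. Klra3 was at 0 to 1.29 CPM in WT and 1.25 to 2.07 CPM in ACKR2-/- samples, which overlapped (edgeR adjusted p = 0.209).

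The Ly49 gene with by far the most reads in monocytes did not follow. Klra2, whose promoter is printed above beside that of Klra7, was at 79.8, 48.4, 104 and 69 CPM in WT and 35.4, 40.4, 77.6 and 87 CPM in ACKR2-/- samples. Its groups overlapped, and the log2 fold change was -0.33 (SE 0.30, edgeR adjusted p = 0.602). Klra17 was at 1.39 to 2.55 CPM in WT and 2.45 to 5.76 CPM in ACKR2-/- samples (log2 fold change 1.00, SE 0.33, edgeR adjusted p = 0.165).

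The other abundant genes did not pass the test either. Klrb1f was at 81.9, 82.9, 97.1 and 98.9 CPM in WT and 103, 74.9, 152 and 153 CPM in ACKR2-/- monocytes (log2 fold change 0.42, SE 0.20, edgeR adjusted p = 0.323). Klrk1 was at 13.1, 10.3, 14 and 17.9 CPM in WT and 23.8, 14.2, 23.6 and 25.1 CPM in ACKR2-/- samples (log2 fold change 0.65, SE 0.21, edgeR adjusted p = 0.15), with only ACKR2-/- 2 inside the WT range. Nkg7 was at 698, 1175, 619 and 935 CPM in WT and 891, 1508, 371 and 378 CPM in ACKR2-/- samples (log2 fold change -0.12, SE 0.40, edgeR adjusted p = 0.905). ACKR2-/- 3 and 4, the lowest in Nkg7, were also the lowest in summed neutrophil markers, at 9352 and 15544 CPM against 29968 to 62957 CPM in the other 6. The gate named a Ly6G- step, Ly6G being a neutrophil marker. The part of neutrophil RNA in the level of Nkg7 was not tested.

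Among the effector genes, Xcl1, a chemokine (lymphotactin) made by NK and CD8 T cells, was at 0, 0.249, 0.0556 and 0 CPM in WT and 1.13, 0.968, 2.42 and 3.61 CPM in ACKR2-/- monocytes. It was called higher (log2 fold change 4.64, SE 0.78, edgeR adjusted p = 0.0132). Gzmm, granzyme M, was at 0.0622 to 0.586 CPM in WT and 0.807 to 2.44 CPM in ACKR2-/- samples and missed the threshold (log2 fold change 2.14, SE 0.54, edgeR adjusted p = 0.0854). Gzmb had 0 reads in WT and 39 in ACKR2-/- samples, at least 11.8-fold higher than the floor. Prf1 had 1 and 41 reads, Fasl 2 and 65 reads and Gzma 1 and 23 reads in the WT and ACKR2-/- groups. These 4 effector genes did not pass the filter, and their ACKR2-/- samples lay above their WT samples without overlap.

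In all, the ACKR2-/- samples lay above every WT sample for 15 of the 35 genes and below for 0. Of these 15, 8 were among the 14 tested genes. Of all tested genes 4.94% lay above without overlap, and since the 14 passed the filter as described above, these shares are not compared. Non-overlap by itself fixes the exact two-sided permutation test of the mean at p = 0.0286, the smallest that 4 against 4 samples allow. For the 15 genes that p therefore adds nothing to the non-overlap, and it was not adjusted for the number of genes. Klrd1, Klre1 and Klra7 remained called whichever single sample was left out. The count was 4 without WT 1 or WT 4 and 5 without WT 3 or ACKR2-/- 4, with Klra1, Klra6, Klrc1 and Xcl1 the genes that lost the call in 1 or more of these. DESeq2 called 8, the eighth being Gzmm (adjusted p = 0.0106), where it called 2.36% of all genes higher. The edgeR count rose to 13 without the filter on low counts and fell to 4 with a filter at 1 CPM.

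**Figure D2:**
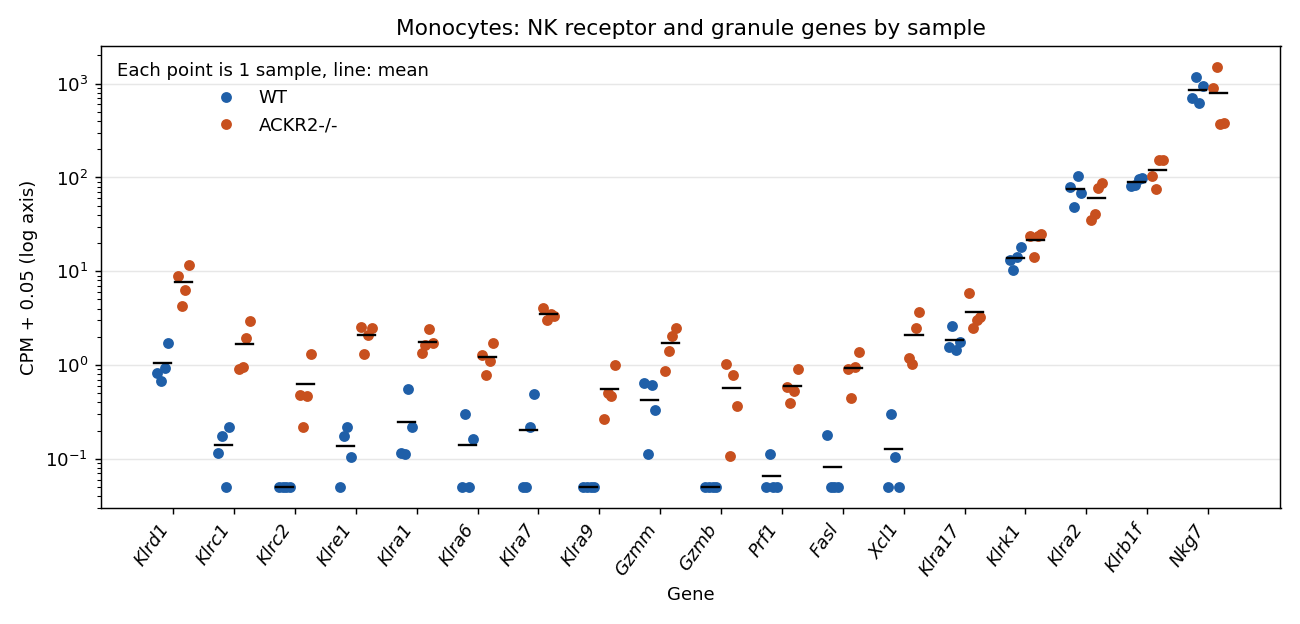
Levels of 18 genes in monocytes (CPM + 0.05, log axis), with 1 point per sample and a line at the mean of each genotype (n = 4). For Klrd1 through Xcl1 the ACKR2-/- points lie above all WT points, while those of Klra17, Klrk1, Klra2, Klrb1f and Nkg7 overlap the WT points.

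Several genes outside the rule that mark NK cells, T cells, innate lymphoid cells or plasmacytoid dendritic cells were also higher in the ACKR2-/- monocyte samples. Of 6 B cell markers 4 were tested and 0 were called by edgeR or DESeq2. Their sum was at 641 to 738 CPM in WT and 731 to 1021 CPM in ACKR2-/- samples. Of 11 NK cell markers outside the rule 8 were tested and 6 were called higher, among them Il2rb (log2 fold change 4.56, edgeR adjusted p = 0.000153), a receptor subunit for IL-2 and IL-15, and Tbx21 (log2 fold change 3.82, edgeR adjusted p = 0.00462), which encodes T-bet. The defining NK marker Ncr1 was at 0 in all 8 samples, and Klrb1c, which encodes NK1.1, had 5 and 18 reads in the WT and ACKR2-/- groups. Of 14 T cell markers 13 were tested and 12 were called higher, led by Cd3d (log2 fold change 4.38, edgeR adjusted p = 3.57e-06). Summed T cell markers were at 5.08, 6.72, 5.29 and 7.05 CPM in WT and 124, 84.2, 121 and 157 CPM in ACKR2-/- samples. None of 14 T cell markers was at 0 in all samples. Of 3 tested gamma delta T cell markers 2 were called higher, Trdc and Tcrg-C2 (log2 fold change 4.37 for each), and of 3 tested innate lymphoid cell markers 1, Il7r (log2 fold change 3.79, edgeR adjusted p = 0.00143). Of 6 plasmacytoid dendritic cell markers 2 were called higher, Siglech (log2 fold change 2.95, edgeR adjusted p = 0.00795) and Cox6a2 (log2 fold change 2.61, edgeR adjusted p = 0.00709), and their summed level was at 172 to 216 CPM in WT and 225 to 336 CPM in ACKR2-/- samples. Of all tested genes 0.913% were called higher. Markers such as Txk and Tbx21, with WT means of 0.0893 and 0.0907 CPM, passed the filter through the ACKR2-/- samples alone. The shares called among the tested markers are therefore not read further. The part of the cell types named here in the change of the NK receptor genes was not tested.

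Of 16 receptor adaptors and signalling genes 15 were tested, and Lat, Cd247, Sh2d1a and Zap70 were called higher, while Tyrobp and the others were not. Cd247, which encodes the zeta signalling chain, had a log2 fold change of 3.11 (edgeR adjusted p = 0.00182). Cd247, Sh2d1a and Zap70 had WT means of 0.236, 0.13 and 0.0582 CPM and passed the filter through the ACKR2-/- samples alone. The share called among these genes is therefore not read further. Of 16 genes for granule packaging and release 9 were tested and 1, the protease gene Ctsw, was called higher (log2 fold change 4.89, edgeR adjusted p = 4.69e-05). Of 13 ligands of the receptors 9 were tested and 0 were called by edgeR, with 1 at an unadjusted p under 0.05 and 0 called by DESeq2. Of the 19 protein-coding neighbours in the NK gene complex 9 were tested and 0 were called by edgeR, with 3 at an unadjusted p under 0.05 and 2 called by DESeq2. The median log2 fold change was -0.12 over the ligands and -0.28 over the neighbours, beside 0.00 over all tested genes.

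SPMs carried 31 of the 35 genes past the filter and none was called by edgeR, in a comparison in which 0.0308% of 12997 genes were called higher. At an unadjusted p under 0.05, 10 were higher in ACKR2-/- and 0 lower (2.93% of all tested genes were higher). DESeq2 called 1, Xcl1, where it called 0.146% of all genes higher. The ACKR2-/- mean was above the WT mean for 28 of the 35 genes. The ACKR2-/- samples lay above every WT sample for 2 of the 35 genes (1.8% of all tested genes), Xcl1 and Ncr1.

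Xcl1 was at 0.431, 1.14, 1.23 and 1.4 CPM in WT SPMs and 4.52, 2.05, 2.27 and 9.56 CPM in ACKR2-/- SPMs. The log2 fold change was 2.13 (SE 0.55, edgeR adjusted p = 0.788, DESeq2 adjusted p = 0.0464). Ncr1 was at 0.0958, 1.39, 1.5 and 1.77 CPM in WT and 5.17, 2.42, 1.96 and 7.32 CPM in ACKR2-/- samples (log2 fold change 1.83, SE 0.65, edgeR adjusted p = 0.788). For both genes the 2 highest samples were ACKR2-/- 1 and 4.

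Gzma was at 0.383, 6.45, 4.05 and 4.66 CPM in WT SPMs and 19.1, 5.46, 5.93 and 45.3 CPM in ACKR2-/- SPMs (log2 fold change 2.29, SE 0.80, edgeR adjusted p = 0.788). Gzmb was at 0.0958, 0.929, 0.704 and 1.18 CPM in WT and 3.79, 0.623, 1.11 and 9.13 CPM in ACKR2-/- samples (log2 fold change 2.31, SE 0.84, edgeR adjusted p = 0.788). Gzma and Gzmb were thus high in ACKR2-/- 1 and 4 and within the WT range in ACKR2-/- 2 and 3. Gzmm and Gzmk were at 0.485 and 0.512 CPM in ACKR2-/- 4, not above their WT ranges of 0.527 to 1.07 and 0.0479 to 0.554 CPM. In ACKR2-/- 1 they were above those ranges, at 1.23 and 0.575 CPM. Klrb1c was at 0.815, 1.7, 2.46 and 1.4 CPM in WT and 4.22, 2.53, 2.01 and 5.82 CPM in ACKR2-/- SPMs (log2 fold change 1.22, SE 0.42, edgeR adjusted p = 0.788). Across the 35 genes ACKR2-/- 4 exceeded every WT sample for 25 and ACKR2-/- 1 for 24, against 7 for ACKR2-/- 2 and 5 for ACKR2-/- 3. The summed level of the 35 genes was 129, 248, 282 and 232 CPM in WT and 373, 210, 217 and 446 CPM in ACKR2-/- SPMs, so WT 1 was the lowest of all 8. Without ACKR2-/- 4, the genes at an unadjusted p under 0.05 fell from 10 to 1.

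None of the abundant receptors of SPMs was called between genotypes, and of those below only Klrd1 and Klrk1 differed little. Klrd1 was at 5.94, 11.9, 15.4 and 14.4 CPM in WT and 12.2, 10, 10.7 and 14.6 CPM in ACKR2-/- samples, with a log2 fold change of 0.00 (SE 0.29, edgeR adjusted p = 1). Klrk1 had a log2 fold change of 0.09 (SE 0.25, edgeR adjusted p = 0.94), with 22.7 to 53.2 CPM in WT and 37 to 47.9 CPM in ACKR2-/- samples. Klra2 was at 53.8, 81.7, 84.5 and 79.5 CPM in WT and 153, 62.3, 70.9 and 155 CPM in ACKR2-/- samples (log2 fold change 0.56, SE 0.32, edgeR adjusted p = 0.788). Klrb1a was at 12.5, 14, 14.9 and 12.7 CPM in WT and 5.33, 12.5, 11.8 and 5.57 CPM in ACKR2-/- samples (log2 fold change -0.62, SE 0.30, edgeR adjusted p = 0.788). ACKR2-/- 1 and 4, high in Gzma and Klra2, were the low samples for Klrb1a.

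The same samples stood out in NK markers outside the rule. Their sum was at 59.3, 130, 144 and 95.7 CPM in WT SPMs and 197, 101, 91 and 245 CPM in ACKR2-/- SPMs. Summed T cell markers were at 277 to 527 CPM in WT and 295, 400, 429 and 244 CPM in ACKR2-/- samples, so ACKR2-/- 1 and 4 were the lowest of their group there. Of the NK markers 8 were tested and 0 called by edgeR or DESeq2, with 2 at an unadjusted p under 0.05. ACKR2-/- 1 and 4 were also the highest of their group in summed plasmacytoid dendritic cell markers, at 386 and 454 CPM against 339 and 246 CPM. The same held for summed neutrophil markers, at 67.1 and 157 CPM against 7.44 and 22.1 CPM. In summed B cell markers they were the lowest of their group, at 641 and 545 CPM against 808 and 768 CPM. The part of NK cells or of these other cell types in the SPM values was not tested.

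**Figure D3:**
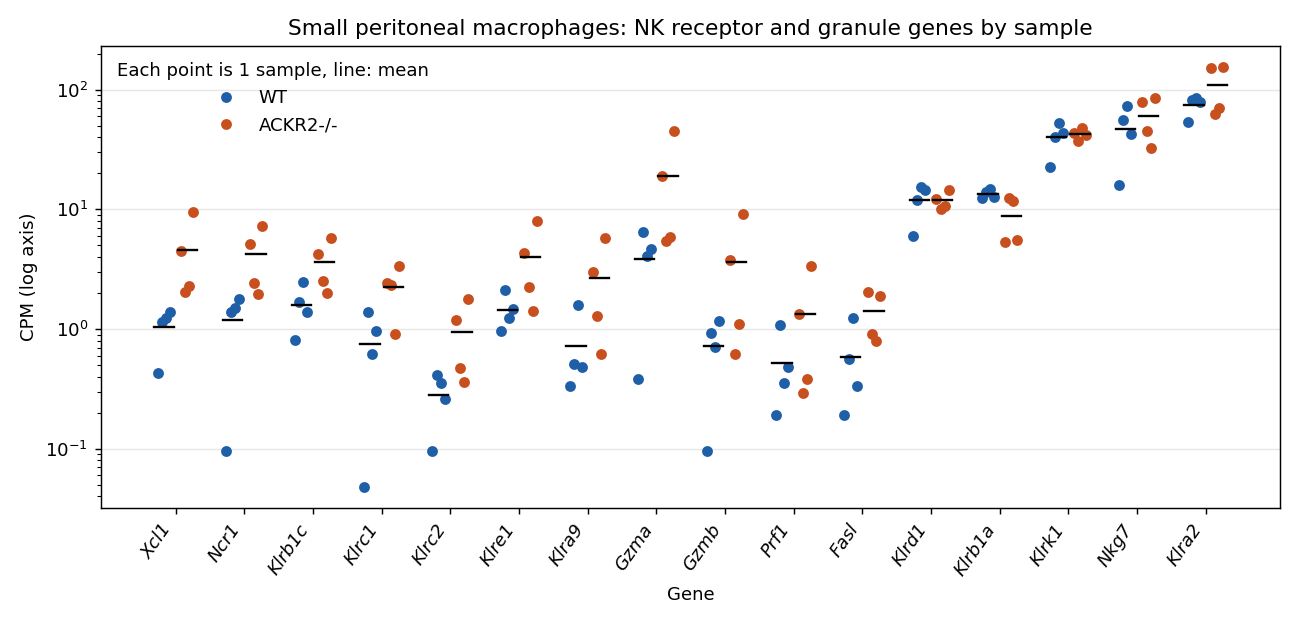
Levels of 16 genes in SPMs (CPM, log axis), with 1 point per sample and a line at the mean of each genotype (n = 4). For Xcl1 and Ncr1 all ACKR2-/- points lie above the WT points, and for Gzma and Gzmb a pair of ACKR2-/- points lies far above the rest.

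Lung macrophage samples of ACKR2-/- mice had higher means of most of these genes, with a wide spread within the genotype. Of the 35 genes 29 passed the filter, and edgeR called 0, as it called 0% of all 16824 genes higher. At an unadjusted p under 0.05, 22 of the 29 were higher in ACKR2-/- and 0 lower, beside 1.24% of all tested genes that were higher. DESeq2 called 7 higher, Gzma, Nkg7, Klre1, Klrb1c, Klra9, Klrc2 and Klrg1, where it called 0.0951% of all tested genes. The median log2 fold change of the 29 was 1.72, beside -0.04 over all tested genes, and the mean was higher in ACKR2-/- for 32 of the 35.

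Gzma was at 145, 116, 76.8, 205 and 188 CPM in WT lung macrophages and at 991, 1271, 446, 193 and 458 CPM in ACKR2-/- lung macrophages. ACKR2-/- 4 lay within the WT range and the other 4 lay above it. The log2 fold change was 2.20 (SE 0.47, edgeR adjusted p = 1, DESeq2 adjusted p = 0.00334). Nkg7 was at 131, 81.5, 64.2, 164 and 100 CPM in WT and 748, 828, 345, 130 and 384 CPM in ACKR2-/- samples, in the same order among ACKR2-/- samples. Its log2 fold change was 2.17 (SE 0.45, edgeR adjusted p = 1, DESeq2 adjusted p = 0.00264). Gzmb was at 128, 58, 26.2, 111 and 80 CPM in WT and 390, 429, 276, 67.6 and 101 CPM in ACKR2-/- samples (log2 fold change 1.65, SE 0.55, edgeR adjusted p = 1, DESeq2 adjusted p = 0.307). For Gzmb both ACKR2-/- 4 and 5 fell within the WT range.

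Prf1 was at 32.1, 30, 13.8, 50.4 and 52.9 CPM in WT and 274, 238, 125, 45.5 and 33.8 CPM in ACKR2-/- samples (log2 fold change 2.0, SE 0.58, edgeR adjusted p = 1). The ratio of perforin to granzyme A therefore differed among ACKR2-/- samples, with ACKR2-/- 5 above the WT range in Gzma and inside it in Prf1. Fasl was at 4.7 to 19.6 CPM in WT and 18.1 to 70 CPM in ACKR2-/- samples. Xcl1 was at 2.69 to 11 CPM in WT and 5.19 to 31.4 CPM in ACKR2-/- samples (log2 fold change 1.72, SE 0.52, edgeR adjusted p = 1). Gzmk (log2 fold change -0.01, SE 0.88) and Gzmm (log2 fold change 0.33, SE 0.58) did not differ beyond their spread.

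Among the receptors, Klre1 was at 9.4, 8.92, 6.77, 16.6 and 12.8 CPM in WT and 85, 104, 45.2, 16 and 25.1 CPM in ACKR2-/- lung macrophages (log2 fold change 2.34, SE 0.49, edgeR adjusted p = 1, DESeq2 adjusted p = 0.00264). Klrb1c was at 14.4, 8.27, 6.87, 17.6 and 20.2 CPM in WT and 98.9, 109, 53.6, 15.1 and 26.1 CPM in ACKR2-/- samples (log2 fold change 2.17, SE 0.53, edgeR adjusted p = 1, DESeq2 adjusted p = 0.0335). Both were highest in ACKR2-/- 1 and 2 and within the WT range in ACKR2-/- 4. Klrg1, an inhibitory receptor of mature NK and effector T cells, was at 5.32 to 16.3 CPM in WT and 8.33 to 65 CPM in ACKR2-/- samples (DESeq2 adjusted p = 0.0492). Ncr1 was at 15.2, 10.8, 11.9, 25.9 and 22.5 CPM in WT and 97.8, 95.8, 50, 20.2 and 9.41 CPM in ACKR2-/- samples (log2 fold change 1.66, SE 0.57, edgeR adjusted p = 1, DESeq2 adjusted p = 0.352). ACKR2-/- 5 was lower in Ncr1 than every WT sample, although its Gzma and Nkg7 were above them all.

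Of the Ly49 genes, Klra3 was the only tested member without overlap, at 7.37, 5.11, 2.43, 8.31 and 9.32 CPM in WT and 26.4, 29.4, 16.8, 9.7 and 10.8 CPM in ACKR2-/- samples (log2 fold change 1.52, SE 0.42, edgeR adjusted p = 1). Such non-overlap was found for 0.22% of all tested genes. The exact two-sided permutation test gave p = 0.00794 for Klra3, the smallest that 5 against 5 samples allow. Non-overlap by itself fixes that p, so it adds nothing further, and it was not adjusted for the number of genes. Klra5, which did not pass the filter, also did not overlap, with 2 reads in WT and 66 in ACKR2-/- samples. Klra4, Klra7, Klra8 and Klra9 had log2 fold changes of 1.74, 1.97, 1.72 and 2.08, each with an unadjusted edgeR p under 0.05. Klra2 again stood aside from the other Ly49 genes, at 95.9, 116, 47, 121 and 212 CPM in WT and 104, 116, 116, 231 and 132 CPM in ACKR2-/- samples (log2 fold change 0.24, SE 0.35, edgeR adjusted p = 1). Its highest samples were WT 5 and ACKR2-/- 4, the libraries low in lung tissue cell markers. Klra17 was at 8.06 CPM in WT 3 and at 0.181 to 2.13 CPM in the other 9 samples.

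Klrd1 and Klrk1 had smaller differences in lung. Klrd1 was at 12.4, 11.1, 35.1, 21.3 and 14.9 CPM in WT and 57.5, 68.5, 33.4, 12.7 and 30.2 CPM in ACKR2-/- samples (log2 fold change 1.10, SE 0.45, edgeR adjusted p = 1). Klrk1 was at 22.3, 16.9, 44.4, 35.5 and 32.6 CPM in WT and 127, 128, 70.4, 22 and 20 CPM in ACKR2-/- samples (log2 fold change 1.28, SE 0.52, edgeR adjusted p = 1). For both genes WT 3 was the highest WT sample, whereas it was among the lowest for Ncr1, Gzma and Gzmb.

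Over the 35 genes ACKR2-/- 1 exceeded every WT sample for 29, ACKR2-/- 2 for 26, ACKR2-/- 3 for 24, ACKR2-/- 5 for 12 and ACKR2-/- 4 for 4. The number at an unadjusted p under 0.05 was 20 to 23 when any single sample was left out and 22 without WT 3 and WT 5 together, and edgeR called 0 in each of these fits.

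NK cell markers outside the rule followed the same samples in part. All 11 were tested in lung, 0 were called by edgeR and 2 by DESeq2, and 6 had an unadjusted p under 0.05, among them Ccl5 (log2 fold change 2.02), Il2rb (1.85) and Eomes (1.93), a transcription factor of NK cells. Their sum was at 207 to 961 CPM in WT and 1834, 1722, 1144, 1051 and 893 CPM in ACKR2-/- samples. ACKR2-/- 4 was thus above every WT sample in the NK marker sum. Its sum of the 35 genes, 895 CPM, lay within the WT range of 448 to 972 CPM. ACKR2-/- 5 was the reverse, within the WT range in the NK marker sum and above it over the 35 genes, at 1435 CPM. Summed T cell markers were at 138 to 421 CPM in WT and 660, 586, 374, 106 and 572 CPM in ACKR2-/- samples, and summed innate lymphoid cell markers, leaving out Ncr1, which is one of the 35 genes, at 29.8 to 63.5 CPM in WT and 101, 93.6, 65.2, 16.3 and 54.2 CPM in ACKR2-/- samples. ACKR2-/- 4 was the lowest of all 10 samples in both sums. No marker of these lists was at 0 in all lung samples, and their part in the values of the NK receptor and granule genes was not tested.

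**Figure D4:**
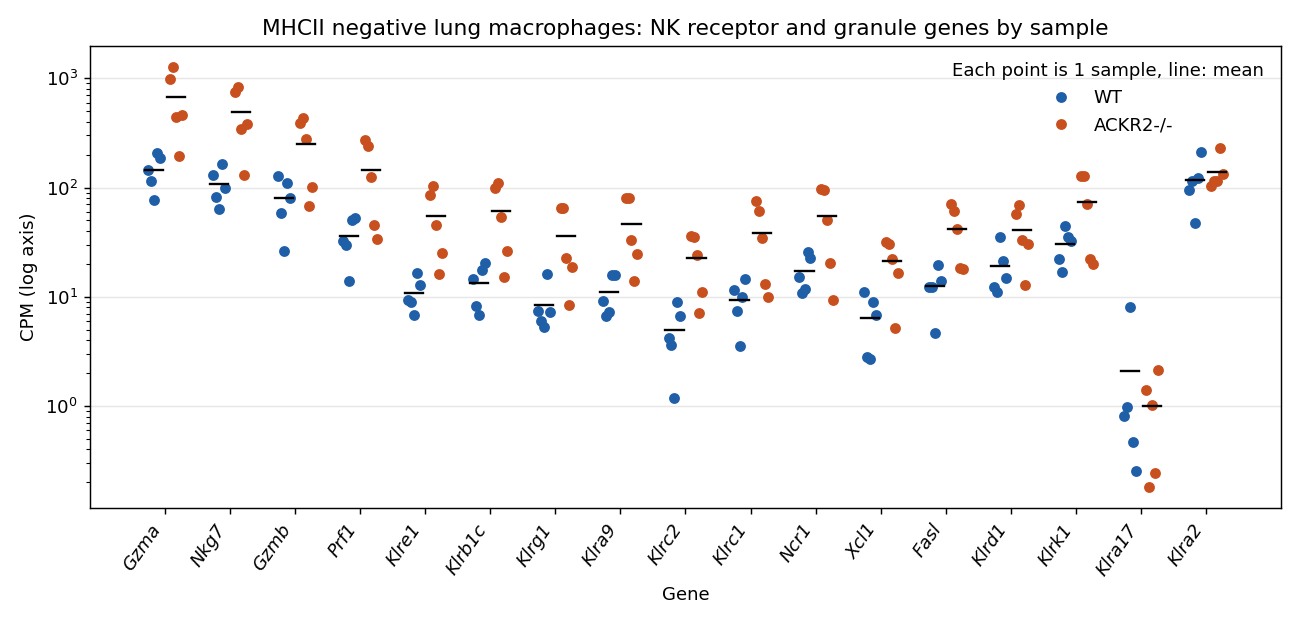
Levels of 17 genes in MHCII negative lung macrophages (CPM, log axis), with 1 point per sample and a line at the mean of each genotype (n = 5). From Gzma to Fasl most ACKR2-/- points lie above the WT points with 1 or 2 points among them, and Klra17 and Klra2 overlap in full.

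**Figure D5:**
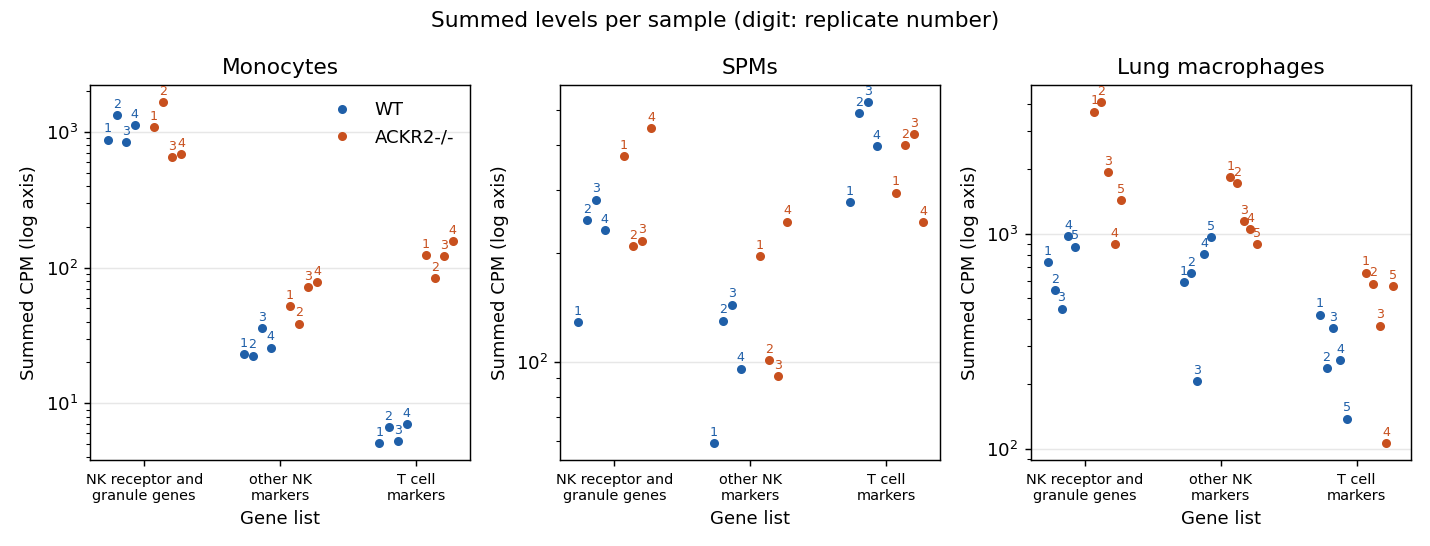
Summed CPM per sample (log axis) of the 35 genes, of the 11 NK markers outside the rule and of the 14 T cell markers in the 3 cell types, with the replicate number beside each point. T cell markers separate the genotypes in monocytes only, the member sum in monocytes is dominated by Nkg7, and the 2 highest lung and SPM samples of the member sum are also the 2 highest in the NK markers.

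Whether the genotype effect differed between cell types was tested for 32 of the 35 genes in the joint fit. None was called by edgeR in the 3 comparisons, which called 0.253% of all genes for monocytes minus SPMs, 0.152% for monocytes minus lung and 0.0393% for SPMs minus lung. At an unadjusted edgeR p under 0.05, the effect was greater in monocytes than in SPMs for 11 of the 32 genes and smaller for 0. Of all 17792 tested genes it was greater for 677 and smaller for 651. For monocytes minus lung 8 members were greater and 1 smaller, beside 737 and 343 of all. For SPMs minus lung 0 members were greater and 2 smaller, beside 650 and 445 of all. Only 14 of the 35 genes passed the filter in monocytes. Others, such as Klrc2 and Klra9 with 0 reads in WT monocytes, entered the joint fit through their level in the macrophages. Nothing is therefore read from these counts of members. Klrd1 came nearest, with a log2 effect greater by 2.86 in monocytes than in SPMs (SE 0.64, edgeR adjusted p = 0.0542). DESeq2 called Klrd1 (adjusted p = 0.0024), Klra7 (adjusted p = 0.0119) and Klrb1a (adjusted p = 0.0338) for monocytes minus SPMs, where it called 0.776% of all genes, and called 0 in the comparisons with lung. Klrb1a had 0 reads in WT and 15 in ACKR2-/- monocytes, did not pass the filter there and was tested only through its level in the macrophages, so nothing is read from its call. Klrd1 had log2 effects of 2.93 in monocytes, 0.00 in SPMs and 1.10 in lung from the separate fits, and Klra7 had 4.35, 0.58 and 1.97. Nkg7 had -0.12, 0.37 and 2.17, and its effect in monocytes minus lung differed by -2.33 (SE 0.69, edgeR adjusted p = 0.299).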

How the data were processed

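Values deposited by the authors are raw counts of reads per gene, 1 table a cell type. The submitters' processing notes name mm10, HISAT2 2.0.5, featureCounts 1.5.0-p3 and DESeq2, with no role or order. Gene lengths came from the SPM table. From the lung counts, 5 summary lines, 56.3% of the total, were left out. Genes below edgeR's filter (minimum count 10, minimum total 15) were dropped, and edgeR 4.0.16 (TMM scaling, quasi-likelihood test, R 4.3.3) was fitted per cell type and, for differences between cell types, on all samples jointly. A call needed an adjusted p under 0.05 over all tested genes and a log2 fold change over 0.5 in size, the study's thresholds. DESeq2 1.42.0, RLE scaling, other filters, a robust fit, a replicate block and left-out samples were alternatives. The pipeline was tested on simulated data with 200 changed genes per cell type. It recovered 94% of them in monocytes, 83.5% in SPMs and 53.5% in lung. False calls made up 7.39%, 4.02% and 9.32% of its calls.

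The members and marker lists were chosen with earlier results of these data known. Genes named are the called members, the 6 of highest level and the 3 of smallest p in each direction per cell type, 5 called per direction of each WT comparison, and a set list of receptors and effectors. Other members were named after their values were seen, to complete a family. Same-numbered samples deviated together in some cases and not in others (correlations -0.13 to 0.69), and since no cell type had every correlation over 0.1, replicate numbers were not taken as pairs. Nothing says that samples of a group came from separate sorts, so p-values measure the spread between these samples. Without molecular identifiers, PCR copies count as reads, and floors and counts carry counting error only.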

Additional observations from a re-analysis of the deposited data

Results flagged for a closer look

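Among the named genes, a sample lay far from the others of its group, by Dixon's criterion at the 95% level, in 5 of the 88 groups with at least 10 reads in a sample, where chance would flag about 1 in 20. Klra2 was low in SPM WT 1 at 53.8 CPM and high in lung ACKR2-/- 4 at 231 CPM. Klra17 was high in lung WT 3 at 8.06 CPM, and Klrg1 in lung WT 4 at 16.3 CPM. Klrk1 was low in monocyte ACKR2-/- 2 at 14.2 CPM.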

How the results depend on the processing

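The 7 members called higher in ACKR2-/- monocytes were 13 without the filter on low counts and 4 with a filter at 1 CPM, and 4 to 8 with 1 sample left out. In SPMs the count of 0 became 1 under DESeq2 and 1 without the filter, and in lung it became 7 under DESeq2; with 1 sample left out both stayed at 0. Genotype effects that differed between monocytes and SPMs went from 0 to 3 under DESeq2, to 1 without the filter, to 1 at 1 CPM, to 1 without lung WT 3 and 5, and to 0 to 1 with 1 sample left out. The cause was not tested, apart from the number of genes that a filter leaves. The other counts stayed within 1.5 times of their values. With the replicate block 7 members were called in monocytes and 0 in SPMs and lung, and it changed no call of these counts. Direction changed for small effects: Klrd1 in SPMs was at -0.01 under DESeq2, RLE scaling and the 1 CPM filter and at -0.22 to 0.15 with 1 sample left out; Gzmk in lung was at 0.42 with the block and -0.33 to 0.39; Klra17 in lung was at 0.44 without WT 3 and 5 and -1.56 to 0.69, and in SPMs at -0.16 to 0.37; Nkg7 in monocytes was at -0.64 to 0.13, Klrk1 in SPMs at -0.10 to 0.26 and Klra2 in lung at -0.02 to 0.60. RLE scaling moved the median WT log2 difference of monocytes from SPMs from 0.00 to -0.16. At these depths members under about 0.2 CPM cannot be compared.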
